A study of Mus musculus with 2 samples.

Results

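Near-start intronic regions are stretches of open chromatin that lie inside a protein-coding gene, outside every annotated exon, and close to a place where transcription begins. They were taken from a list of accessible regions in regulatory T (Treg) cells. Peaks that overlapped or touched were merged, and the peak of greatest fold enrichment gave each merged region its summit. A region was kept if its summit lay in the body of a protein-coding gene, in no exon, and more than 1000 but at most 10000 bp from the nearest protein-coding transcript start. The list itself had passed a threshold on reproducibility, and fold enrichment placed the summit, so neither is independent of how the regions were chosen. It found 3093 regions of 29415 in all, or 10.5% (95% exact binomial interval 10.2 to 10.9%).

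The cells were inflammation-experienced Treg cells of 1 male adult mouse, aged 6 months, of the strain Foxp3CreERT2 x Rosa26YFP. In such mice the promoter of Foxp3 drives a drug-inducible Cre recombinase, and a Cre reporter at the Rosa26 locus carries a yellow fluorescent protein. Both libraries (2 samples, 1 group) are labelled as technical repeats of 1 biological replicate, and the lists were taken to pool them, so no spread between animals could be given. The labels state neither the inflammation nor the way the cells were isolated, and their source entry names a bone marrow hematopoietic cell as the origin of the primary cell. Accessibility was measured by ATAC-seq, which marks open DNA by where a transposase, Tn5, can cut it and add adapters. The lists hold no read counts, so the depth of the libraries is unknown. Fold enrichment is the authors' linear ratio of a peak's height to its background, and a region has the fold of its summit peak. Its −log10 p and score are the greatest among its merged peaks. Intervals of shares are exact binomial (Clopper-Pearson) and those of medians come from exact binomial order statistics. Both cover counting error over regions of this one animal only.

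Introns near a gene's start are common places for enhancers and silencers, short stretches where transcription factors bind and from which they act on the neighbouring promoter. In T cells the best known example is Foxp3, the factor that defines the Treg lineage, whose first intron holds conserved noncoding sequences. One of them is rich in CG pairs that lose their methylation in stable Treg cells and is known for keeping the gene on through cell division. Among the proteins that bind such elements in T cells are ETS and RUNX factors, which act throughout the lineage, AP-1 factors, which are made after stimulation, and CTCF, which anchors chromatin loops.

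The member at Foxp3 is shown first because it carries the lineage gene. The sequences below are the plus strand of GRCm38.p6 (mm10), read 5′ to 3′ from RefSeq. In this 300-base window centred on the summit, capitals mark CG pairs.
Foxp3, chrX:7583914-7584213: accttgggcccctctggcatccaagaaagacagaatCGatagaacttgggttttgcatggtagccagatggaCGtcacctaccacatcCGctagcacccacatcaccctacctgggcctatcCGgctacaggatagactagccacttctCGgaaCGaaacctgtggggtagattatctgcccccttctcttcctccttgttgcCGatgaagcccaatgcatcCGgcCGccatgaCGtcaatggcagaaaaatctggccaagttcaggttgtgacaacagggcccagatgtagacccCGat
The window held 11 CG pairs, and the whole region of 755 bp held 14. It lay within the first intron, from 7580579 to 7585811. The observed over expected ratio of CG pairs in the 500 bp around the summit was 0.414, and 15.5% of the near-start intronic regions had a higher one.

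At the T cell genes the member of greatest fold enrichment in each gene list is described further on, and 4 of them are shown here in windows of 101 bases centred on the summit. Capitals mark matches to the consensus letters of ETS (GGAAGT), RUNX (TGTGGTT) and AP-1 (TGANTCA) on either strand, here and below.
Prdm1, chr10:44448263-44448363: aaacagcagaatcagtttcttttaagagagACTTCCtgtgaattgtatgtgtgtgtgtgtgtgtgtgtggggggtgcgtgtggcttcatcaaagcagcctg
Prkcq, chr2:11218262-11218362: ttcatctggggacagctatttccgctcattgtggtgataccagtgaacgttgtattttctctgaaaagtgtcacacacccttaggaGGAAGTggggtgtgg
Runx3, chr4:135128931-135129031: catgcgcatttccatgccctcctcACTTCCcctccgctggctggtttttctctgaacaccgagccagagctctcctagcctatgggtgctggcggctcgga
Smad3, chr9:63706502-63706602: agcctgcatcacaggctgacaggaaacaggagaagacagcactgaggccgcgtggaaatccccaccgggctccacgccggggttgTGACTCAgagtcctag
Smad3 carried an AP-1 match, and Prdm1, Prkcq and Runx3 an ETS match each. These windows were picked for holding such a match. The Foxp3 window of this size and those of the greatest members at Foxp1, Nfkb1 and Bach2 held none of the 3.

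The next windows were chosen after the motif values were seen, to show members of high fold enrichment that held ETS together with RUNX (Dnah6 and Ttc39b) or with AP-1 (Hcls1).
Dnah6, chr6:73210578-73210678: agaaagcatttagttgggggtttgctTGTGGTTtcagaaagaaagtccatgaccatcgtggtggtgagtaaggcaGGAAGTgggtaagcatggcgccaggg
Ttc39b, chr4:83273843-83273943: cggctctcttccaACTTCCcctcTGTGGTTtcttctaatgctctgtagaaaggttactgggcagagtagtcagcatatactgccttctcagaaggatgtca
Hcls1, chr16:36941306-36941406: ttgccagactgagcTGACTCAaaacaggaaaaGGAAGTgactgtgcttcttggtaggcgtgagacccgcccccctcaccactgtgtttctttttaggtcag
A further pair shows the members of greatest fold enrichment with a CTCF match, again in capitals. CTCF is searched by a longer consensus and given by name.
Ccdc38, chr10:93549150-93549250: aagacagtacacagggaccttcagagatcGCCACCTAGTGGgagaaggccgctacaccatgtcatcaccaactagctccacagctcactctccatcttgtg
Bckdhb, chr9:83957070-83957170: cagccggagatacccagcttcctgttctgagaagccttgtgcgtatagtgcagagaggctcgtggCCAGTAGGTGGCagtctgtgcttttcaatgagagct
The CTCF match at Ccdc38 and at Bckdhb was the only one of these 4 motifs in its window. A match is a description of letters and neither a bound site nor a cause.

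The labelled cell type was set against marker genes through their promoters. An open promoter here means a gene with a region reaching to within 1000 bp of one of its protein-coding starts. Of all protein-coding genes, 49.7% had such a promoter. Open promoters were found at 4 of 4 Treg markers (Foxp3, Il2ra, Ctla4 and Ikzf2) and at 7 of 8 T cell markers, the exception being Cd4. For CD8 T cells the count was 1 of 2 (Cd8b1), for B cells 1 of 5 (Pax5) and for erythroid cells 1 of 4 (Klf1). It was 0 of 4 for NK cells, 0 of 6 for myeloid cells and 0 of 3 for progenitors.

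Compared with intronic regions more than 10000 bp from a start, called deep intronic here, the near-start intronic regions were lower and narrower. Their median fold enrichment was 10.2 (9.96 to 10.4), with the middle 50% between 7.15 and 14.2 and a full range of 2.39 to 34.5. The 5713 deep intronic regions had a median of 12.1 (11.9 to 12.3), the 10802 promoter regions 15.4 (15.3 to 15.6) and all regions together 13.1. The median width was 494 bp (482 to 507), against 557 bp in deep introns and 909 bp at promoters. By the −log10 p the 2 intronic classes were closer, with medians of 66.8 (65 to 68.5) near starts and 67.8 (66.2 to 69.5) in deep introns, while promoters stood at 177.3. In the larger pseudoreplicated list the median folds were 6.65 near starts and 7.53 in deep introns, and among regions at or above the median fold of all regions they were 16.4 and 16.6. More than 1 summit was called in 36.8% of the near-start intronic regions, in 40.8% of deep intronic regions and in 79.4% of promoter regions. Thus the classes were ordered in the same way by fold enrichment, width and number of summits.

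Per base of available sequence, near-start introns held more regions than deep introns. The 211.4 Mb of intron that satisfied the rule made up 7.98% of the genome and held 14.6 regions per Mb (14.1 to 15.2). Deep introns held 8.27 per Mb, intergenic sequence 5.32 and promoters 167.4. Within the window the density was highest next to its lower bound, at 20.1 per Mb (18.6 to 21.8) between 1000 and 2000 bp. From 2000 to 10000 bp it stayed between 11.8 and 15.6 per Mb, with no steady order from bin to bin. It was still 14 per Mb between 10000 and 20000 bp and then lower, at 10.6, 6.4 and 2.83 per Mb in the bins of 20000 to 50000 bp, 50000 to 100000 bp and beyond.

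Fold enrichment followed the distance in the opposite direction. The median was 8.18 (7.74 to 8.55) in the 623 regions between 1000 and 2000 bp, 8.99 between 2000 and 3000 bp, 9.66 between 3000 and 4000 bp and 10 between 4000 and 5000 bp. It reached 11.1 (10.5 to 11.6) between 5000 and 6000 bp and lay between 11.4 and 11.9 in the bins from there to 10000 bp. In the 4 bins of deep introns it was 12.1 to 12.2. The −log10 p showed no such order, with medians of 66.8 in the nearest bin, 72.2 in the next and 66.4 in the farthest. At the lower bound of the rule, the 70 members at 1002 to 1098 bp had a median fold of 8.04, and the 79 regions just outside it, at 901 to 1000 bp, 7.85. At the upper bound the values were 10.9 for the 31 members at 9901 to 10000 bp and 11.4 for the 19 regions at 10005 to 10100 bp.

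**Figure D1:**
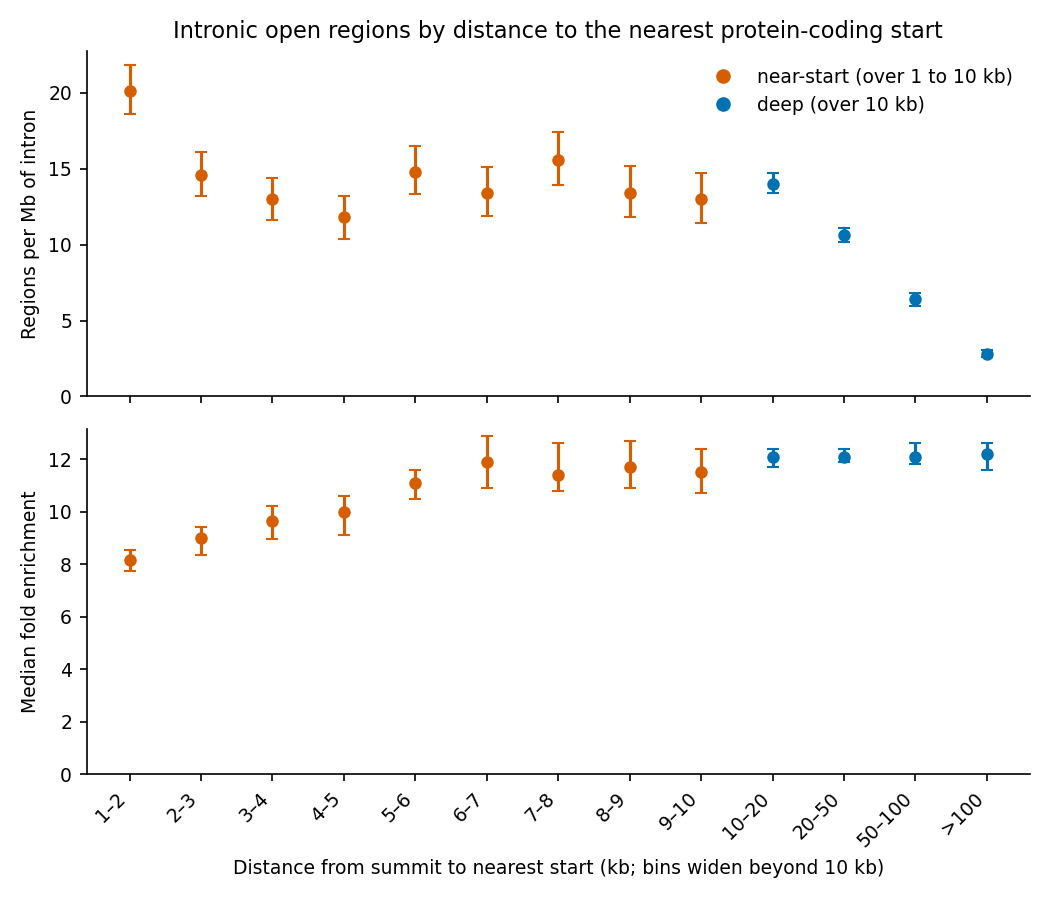
Intronic open regions by distance from the summit to the nearest protein-coding start, in kb. The upper panel gives regions per Mb of intron with 95% exact Poisson intervals and the lower panel the median fold enrichment with its 95% interval, with near-start bins in orange and deep bins in blue; the nearest bin has the highest density (20.1 per Mb) and the lowest median fold (8.18).

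Over all members, first introns held more of the regions than their share of the sequence. The intron was taken from the transcript of the host gene whose start was nearest among those that span the summit, and the host gene is the protein-coding gene over the summit with the nearest start. Of the 3093 regions, 1861 lay in a first intron, or 60.2% (58.4 to 61.9%), where first introns made up 52.1% of the sequence open to the rule. Among members at or above the median fold of all regions the share was 47.4% (44.2 to 50.6%), below that of the sequence. The second intron held 492 regions (15.9%, against 18.4% of the sequence), the third 217 (7.02%, against 8.88%) and later introns 464 (15%, against 18.9%). A further 59 regions lay in a gene record but outside its protein-coding introns. Fold enrichment was lowest in first introns, at a median of 9.28 (9.01 to 9.59), and was 10.6, 11.6 and 12.7 in the second, the third and later introns. The intervals of the first and the later introns did not overlap. First introns with a member had a median length of 16760 bp, close to the 16529 bp found when the same sequence was sampled at regular steps.

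In 2857 of the regions (92.4%) the nearest start belonged to the host gene itself. The summit lay downstream of that start in 2218 (71.7%, against 70.9% of the sequence) and upstream of an internal start in 639 (20.7%, against 20.6%). The side of the start thus showed nearly the same shares as the sequence. Another 236 regions were nearest to a start of a neighbouring or overlapping gene.

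The promoter of the host gene was usually open as well. The regions lay in 2235 host genes, which is 10.2% of the 21853 protein-coding genes, while 4 regions had no host with a protein-coding transcript. Of these hosts, 1807 had an open promoter (80.9%, 79.2 to 82.5%), beside 49.7% of all protein-coding genes. A region inside a gene can itself reach into a promoter window, and without the near-start intronic regions the count was 1759 (78.7%). Counted over sequence rather than genes, 82.3% of the regions lay in hosts with an open promoter, against 57.8% of the bases open to the rule. The promoters themselves were lower in the hosts: their median fold was 13.3, beside 16.4 over all genes with an open promoter. When only regions at or above the median fold of all regions were kept, the share of hosts with an open promoter was 46.1%, beside 35.4% of all genes.

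**Figure D2:**
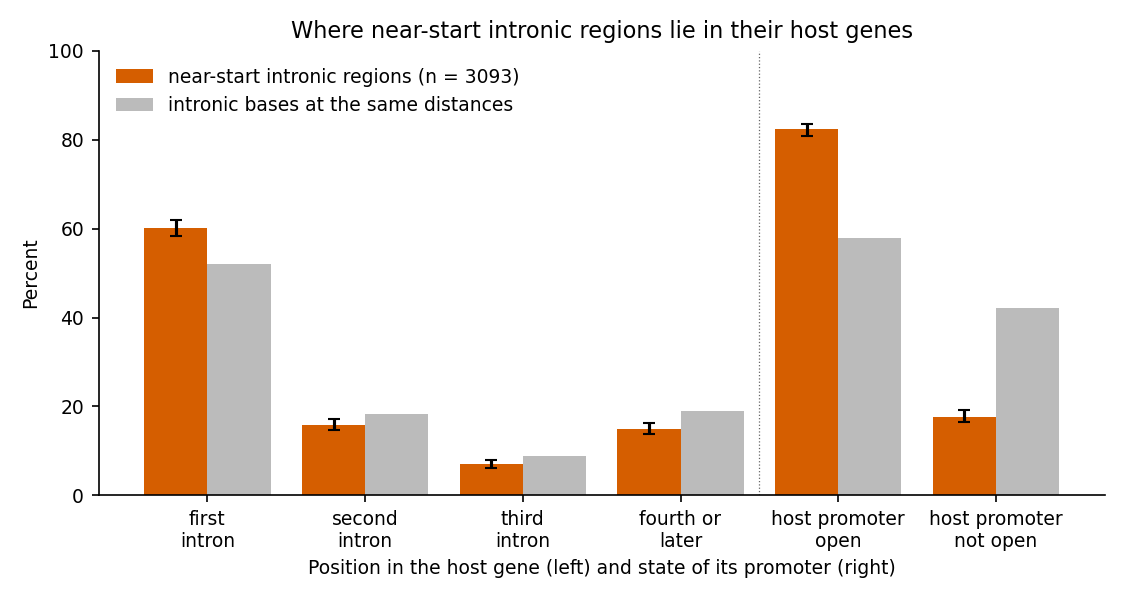
Share of the 3093 near-start intronic regions by intron number and by the state of the host promoter (orange bars, percent, with 95% exact binomial intervals), beside the share of intronic bases that satisfy the same distance rule (grey bars). First introns hold 60.2% of the regions and 52.1% of the bases, and hosts with an open promoter hold 82.3% and 57.8%.

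The order of fold enrichment with distance was seen in hosts with an open promoter. In the other hosts the nearest bin was also lower than deep introns, but the bins between showed no steady order. In hosts with an open promoter the median fold was 7.84 (7.47 to 8.2) between 1000 and 2000 bp, 8.7 (8.27 to 9.06) between 2000 and 5000 bp and 11.4 (11 to 11.8) between 5000 and 10000 bp. In hosts without one it was 11.1 (10.1 to 12.2), 13 (12 to 13.6) and 11.8 (10.9 to 13.1), from 74, 230 and 244 regions. The intervals of the 2 kinds of host were apart in the nearer 2 bins and overlapped between 5000 and 10000 bp. Among deep intronic regions they were apart again, at 11.9 (11.8 to 12.1) and 13.1 (12.6 to 13.4). Both kinds of host thus had a lower median in the nearest bin than in deep introns, with intervals apart. The split was also present within first introns, with 7.67 (7.19 to 8.11) and 11.1 (9.1 to 12.8) in the nearest bin. Between 5000 and 10000 bp their medians were 10.7 (10.4 to 11.1) and 11.5 (10.3 to 13.4), with overlapping intervals. In later introns the nearest bin gave 8.79 (7.54 to 10.4) and 10.6 (7.67 to 15.4), with overlapping intervals. Between 2000 and 5000 bp the intervals were apart, at 10.3 (9.28 to 10.9) and 13.4 (12.5 to 13.9). Between 5000 and 10000 bp both medians were 12.4. The −log10 p did not follow the fold: in the nearest bin its median was 67.3 in hosts with an open promoter and 56.7 in the others. The sources used here do not give the background behind the fold, and its part in this pattern was not tested. Members that reach into a promoter window counted as opening it, so the split depends in part on their own position and width. It was not repeated without them. With 1 animal the difference between the 2 kinds of host has no replicate check.

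**Figure D3:**
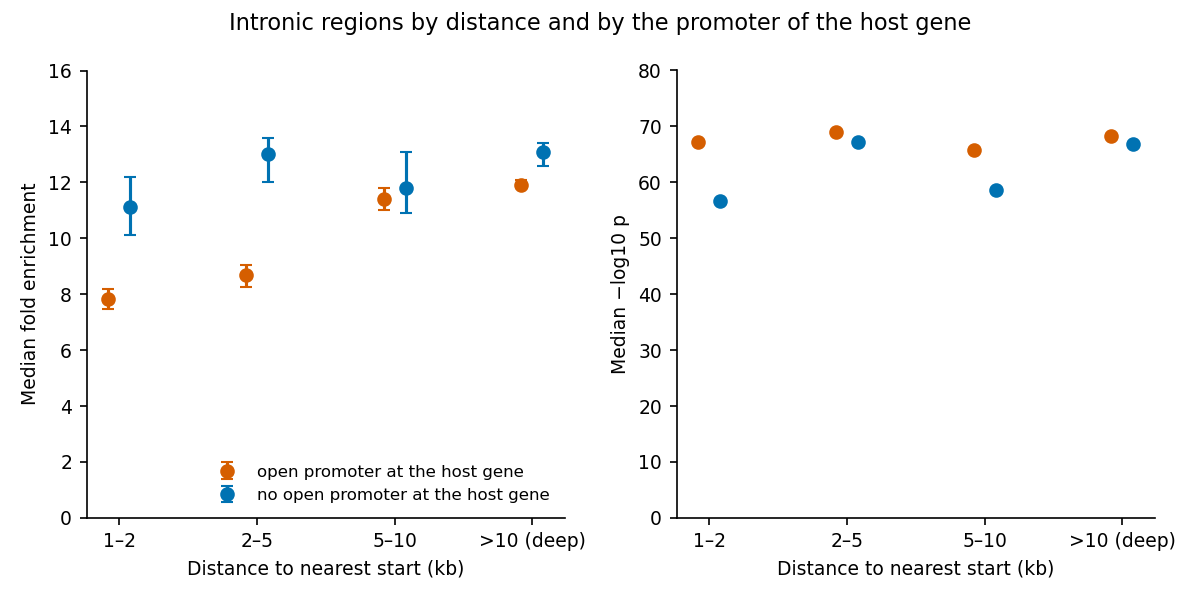
Median fold enrichment with its 95% interval (left) and median −log10 p (right) of intronic regions by distance to the nearest start in kb, for hosts with an open promoter (orange) and without one (blue); regions beyond 10 kb are deep intronic. At 1 to 2 kb the fold medians are 7.84 and 11.1, at 5 to 10 kb they are 11.4 and 11.8, and the −log10 p medians show no matching order.

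A region could be set against the promoter of its own gene in 2480 cases. In 809 of them (32.6%) the intronic region had the greater fold, and the median ratio of region to promoter was 0.775. In 651 host genes (37% of those with a promoter region) the highest near-start intronic region exceeded the promoter. Within the 796 genes that held both near-start and deep intronic regions, the near-start median was the lower in 519 (65.2%). The medians in these genes were 10.1 near starts and 12.2 in deep introns, and the median difference on the log2 scale was -0.26. The lower fold of near-start regions was therefore also found within genes.

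Most hosts held a single region. There were 1689 such genes, while 546 genes held 2 or more and together 1400 regions, and 30 genes held 5 or more. Neighbouring members of a gene had a median spacing of 6212 bp from summit to summit, and 23.3% of the 854 spacings were within 2000 bp. The largest count of regions in a gene, 16, belonged to Gm20388, a gene record from 119910841 to 124345722 on chromosome 8 that spans many other genes; in 0 of its 16 regions was the nearest start its own. The next was Foxp1, a forkhead factor that keeps T cells quiescent and has 14 annotated starts, with 10 regions. Their folds ran from 5.56 to 15.5 with a median of 8.62, and the greatest lay 6239 bp upstream of an internal start.

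The guanine exchange factor gene Trio followed with 9 regions (5.3 to 15.7) and Spata13, another exchange factor gene, with 8 (3.83 to 11.8). Rgs3, a regulator of G-protein signalling, held 7 regions between 7.13 and 13.3, and Tnfaip8, a regulator of cell death, 7 between 4.46 and 13. With 6 regions each came Asb2, Elmo1, Fyn, Kat2b, Nfkb1 and Stat5b. In Asb2, a subunit of a ubiquitin ligase, the folds were 19.6, 4.72, 19.7, 5.17, 9.01 and 7.58 from left to right, so that 2 regions stood far above the others. Fyn, a kinase of the T cell receptor, had 6.67, 13.9, 7.56, 8.81, 10.4 and 7.02, of which 1 exceeded its promoter (13.7). In Nfkb1, which encodes the p50 subunit of NF-kB, the folds were 8.31, 4.24, 12.5, 12.4, 7.26 and 5.56, with 2 above the promoter (11.8). Stat5b, a transducer of interleukin-2 signals, had 15.2, 5, 11.5, 7.75, 6.01 and 6.3, again with 2 above the promoter (10.1). These 4 genes thus held 1 or 2 high regions beside several low ones.

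None of the 12 regions of greatest fold enrichment lay in a gene of the T cell lists, which held 142 of all 3093 members. Miga1, which encodes a protein of the mitochondrial outer membrane, held the highest at 34.5 (chr3:152315649-152316077), 1898 bp downstream of its start in the first intron. Its promoter stood at 8.84. Mrps27, a mitochondrial ribosomal protein gene, followed at 33.1 with a −log10 p of 695.3, and Celsr2, a cadherin of planar cell polarity, at 30.9. Then came Rabepk at 28.6, Ankrd13b at 28.5, the receptor phosphatase gene Ptprh at 28.3, Patl2 at 28.1, the protease genes Tmprss7 and Mmel1 at 28 each, and at 27.8 each the dynein gene Dnah6, the replication factor gene Wdhd1 and Mapk9, which encodes the kinase JNK2. Of these 12 regions, 6 lay in first introns, beside 60.2% of all members. At 5 the host had no promoter region, and the other 7 each exceeded the promoter of the host. Among all 3093 members, 2480 had a host with a promoter region, and 32.6% of those exceeded it. At Celsr2 and Tmprss7 a further annotated start, of a transcript that is not protein-coding, lay within 1000 bp of the summit.

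At the other end, the 6 lowest regions had folds of 2.39 to 2.62 and lay in Trnp1, Trib2, Pot1b, Ripk2, B4galnt1 and Srgn. Srgn encodes the proteoglycan serglycin and Ripk2 a kinase of innate signalling. The −log10 p was under 10 in 2 members, Trnp1 (3.53) and Pot1b (3), both named for these values. Trnp1 nevertheless carried the top score of 1000. Over all regions, 49 had a −log10 p under 10 and 24 of them the top score.

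Of 11 genes that define Treg cells, 9 held near-start intronic regions, 16 in all, and Tnfrsf18 and Nrp1 held none. Over all protein-coding genes 10.2% held one, and over those with an open promoter 16.6%. At Foxp3 the single region (chrX:7583663-7584417) had a fold of 10.8 and a −log10 p of 150.5, with 9.62 at the promoter. It had 2 summits, at 7583742 with a fold of 2.24 and at 7584064 with 10.8. The main summit lay 3581 bp downstream of the start at 7580483, the nearest before it, and 4388 bp downstream of the one at 7579676. It lay 2209 bp upstream of the start at 7586273. Its fold was higher than that of 55.2% of the members, so it stood near their middle.

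Il2ra, the high-affinity chain of the interleukin-2 receptor, held 1 region in its first intron with a fold of 6.6, below its promoter at 11. Ctla4, an inhibitory receptor, held 4, with folds of 5.33, 3.27, 4.17 and 5.86, all below the promoter at 6.2. The first 2 of these lay in the gene record upstream of the annotated protein-coding introns. Il10, a suppressive cytokine gene, held a region of 6.99 in intron 3 and one of 9.7 in intron 4, and had no promoter region in this list. At Ikzf2, which encodes the transcription factor Helios, the folds were 5.21 and 6.96, both above the promoter at 4.92.

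Ikzf4, the gene of the related factor Eos, held a region of 17.3 (chr10:128636688-128637529), the highest among these genes, and another of 8.88, with 6.05 at the promoter. Icos, a costimulatory receptor gene, held a region of 9.79 below its promoter at 14.6. Tigit, an inhibitory receptor gene, held regions of 6.8 and 3.64 below a promoter of 10.6. Lrrc32, which presents latent TGF-beta on the Treg surface, held a region of 9.14, with 4.82 at the promoter. Regions at Foxp3, Ikzf2, Ikzf4 and Lrrc32 thus exceeded their promoters, while those at Il2ra, Ctla4, Icos and Tigit did not.

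Genes of 8 T cell lists often hosted near-start intronic regions. Of 146 genes in these lists, 74 held at least 1 (50.7%, 42.3 to 59%), 142 regions in all, beside the 10.2% of all protein-coding genes. Among genes with an open promoter of any kind the share was 16.6%. The available sequence per gene was similar, with a median of 8700 bp of near-start intron in the listed genes, 8700 bp in genes with an open promoter and 8100 bp in all. In the class with over 5000 and at most 10000 bp of such intron, 38 of 66 listed genes held a region (57.6%, 44.8 to 69.7%), against 14.2% of genes with an open promoter. The lists were drawn up with earlier results of these data known, so the shares are a description. Of 14 housekeeping genes 1 held a region (Sdha, a respiratory enzyme gene, 22.8), of 13 myeloid genes 1 (Spi1, the gene of the factor PU.1, 19.5), and of 10 B cell, 8 neuron and 7 liver genes 0.

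By list, the share was highest in the Treg core genes, with 17 of 24 genes (70.8%, 48.9 to 87.4%) and 33 regions. This interval overlapped that of every other T cell list. Besides the genes above, the Treg core hosts were Stat5b with 6 regions, Entpd1, an ectoenzyme gene, with 3, Itgae and Tnfrsf9 with 2, and Nt5e, Capg, Gpr83 and Lag3 with 1. The greatest fold was 17.9 at Itgae, the integrin chain CD103, in its intron 22 and 7135 bp from the start of another gene. The list median was 6.99. Of T cell receptor signalling genes 13 of 21 held 27 regions with a median of 7.02: Fyn held 6, Plcg1 and Cd2 4, Lck and Prkcq 2, and Cd247, Lcp2, Vav1, Cd28, Cd5 and Rasgrp1 1, among others. The greatest lay in Prkcq, the kinase PKC-theta, at 16.4 with a −log10 p of 355.4 and no promoter region. Genes of the CD3 chains (Cd3e, Cd3d and Cd3g) held none, with promoters at 14.2, 12.9 and 15.4. The near-start intron available in these genes is not given.

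Of naive and quiescence genes 10 of 17 held 26 regions with a median of 6.95. Among them were Foxp1 with 10, Bach2 with 3, Foxo1, Il7r and Slfn2 with 2, and Tcf7, Lef1, Id3 and Btg2 with 1. Tcf7 and Lef1, factors of naive T cells, held regions of 12.4 and 11.8. Of T lineage factors 7 of 12 held 12 regions with a median of 6.11: Gata3 held 4, Bcl11b and Runx1 2, and Runx3, Ets1, Ikzf1 and Tox 1, with Runx3 highest at 12.6. Of effector and tissue Treg genes 9 of 24 held 13 regions with a median of 6.5. These were Gata3, Prdm1, Irf4, Batf, Maf, Rora, Nfil3, Tnfrsf1b and Itgb8, and Prdm1, the gene of Blimp-1, was highest at 10.5.

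Of cytokine signalling genes 11 of 21 held 19 regions, and their median of 9.75 was the one nearest to that of all members. Smad3, a transducer of TGF-beta, held 4, and the highest of them reached 20.7 (chr9:63706213-63706808) beside a promoter of 5.78. Stat3 held 1 region at 18.8 and Il4ra 2, at 14.1 and 4.28. Jak2, Stat4 and Smad7 held 2 each, and Il6ra, Il21r, Ifngr1 and Jak1 1 each. Of NF-kB and NFAT genes 5 of 15 held 13 regions (median 6.5): Nfkb1 6, Nfkbiz 3, Nfatc2 2, and Rel and Nfkbie 1. Of AP-1 family genes 6 of 16 held 8 regions (median 5.99), with Bach2 highest at 9.24, and Junb, Batf, Maf, Bach1 and Nfe2l2 between 5.44 and 7.62. Fos, Fosb, Jun and Jund held none. Genes of this list had a median of 4750 bp of near-start intron, beside 8700 bp in the 8 lists together. The intron available in each gene is not given, and a gene without any could hold no region.

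The regions at T cell genes were of low fold but not of low −log10 p. Their median fold was 7.14 (6.59 to 7.62), and 32 of 142 (22.5%) lay above the median of all members. Their median −log10 p was 66.2, beside 66.8 in all members. The lower fold was found in each bin of distance, with 6.55 beside 8.29 in genes outside the lists between 1000 and 2000 bp, 6.19 beside 9.57 between 2000 and 5000 bp and 8.48 beside 11.6 between 5000 and 10000 bp. It was also found in their 276 deep intronic regions, at 9.15 beside 12.3. First introns held 66.9% of the regions at listed genes. Of the 130 with a promoter region to compare, 41 (31.5%) exceeded it, close to the 32.6% of all members.

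**Figure D4:**
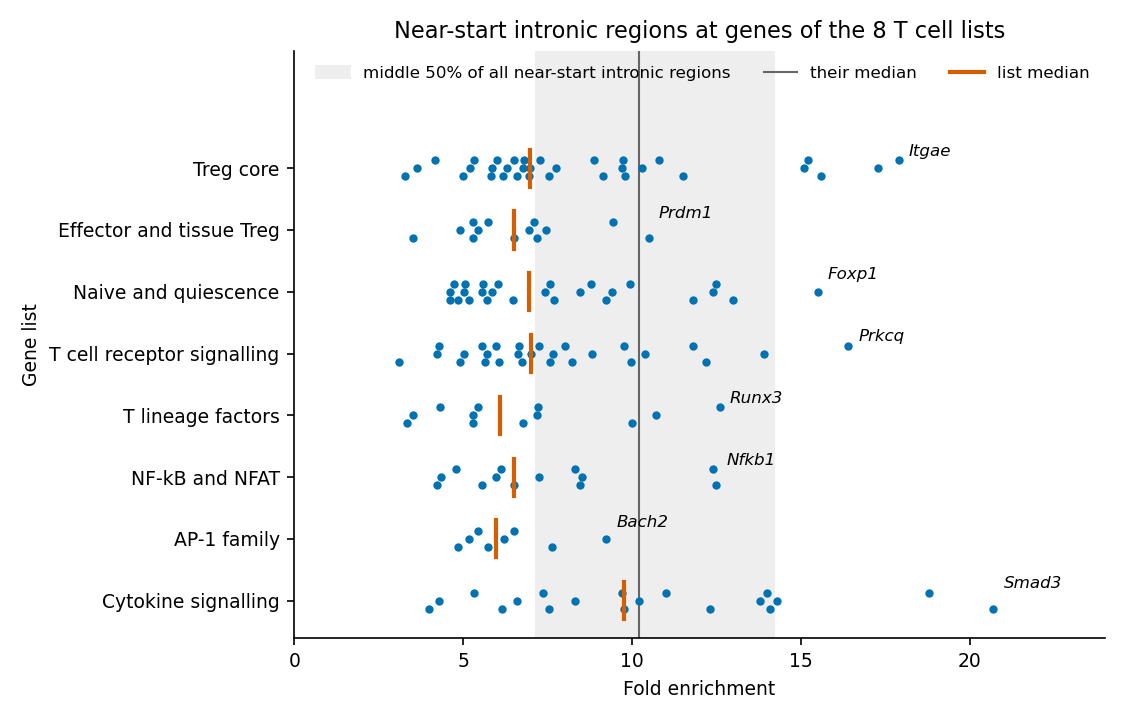
Fold enrichment of each near-start intronic region (blue points) at genes of the 8 T cell lists, with the list median as an orange bar; the grey band and line give the middle 50% and the median of all 3093 regions. Genes in 2 lists appear in both, the gene of the highest point is named, and list medians run from 5.99 (AP-1 family) to 9.75 (cytokine signalling), all left of the line at 10.2.

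Short sequence motifs gathered at the summits. For 27 consensus motifs, searched on both strands and allowed to share bases, the share of regions with a match within 50 bp of the summit was set against equally wide flanking windows, whose centres lay 500 bp from the summit on each side. An ETS match (GGAAGT) was found in 727 regions (23.5%, 22 to 25%), beside 20.9% of all regions, and in 5.71% of flanking windows, a ratio of 4.12. A RUNX match (TGTGGTT) was found in 266 (8.6%, 7.64 to 9.64%), beside 6.35% of all regions, with a ratio of 3.39. An AP-1 match (TGANTCA) was found in 251 (8.12%, 7.18 to 9.13%), also beside 6.35%, with a ratio of 2.87. A CTCF match was found in 264 (8.54%, 7.57 to 9.58%), beside 6.49%, and its flanking share of 0.533% gave the ratio of 16. Promoters held RUNX in 1.9%, AP-1 in 2.22% and CTCF in 1.25%, whereas deep introns, with 9.91%, 9.42% and 7.93%, were close to near-start introns. ETS was found in 18.4% of promoter regions and in 24.2% (23.1 to 25.3%) of deep intronic regions.

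For TCF/LEF (CTTTGA), factors of naive T cells, 8.54% of the regions had a match, beside 7.17% of all regions. Deep intronic regions had one in 9.85% and intergenic regions in 9.33%. The ratio to the flanks was 1.29 in the members. It was 1.06 in windows of 25 bp either side of the summit, so the excess was not found close to the summit. NFAT (TGGAAA) and STAT (TTCNNNGAA) matches were about as common at summits as in flanks, with ratios of 1 and 1.09. Over all regions these ratios were 0.818 and 0.977. NF-kB matches had a ratio of 2.8 and interferon response elements one of 2.9, both given by name. Over all regions the ratios were 2.39 and 2.51, and at promoters 1.46 and 1.4. Deep introns had 4.48 and 3.32, and intergenic regions 3.35 and 2.89. The cyclic AMP response element (TGACGTCA) was found in 24 regions, 0.776%, beside 1.53% of all regions, where flanks of the members had 0.0485%. GC boxes (GGGCGG) were found in 7.89%, beside 20.3% of all regions and 42.7% of promoters, with a ratio of 3.17. The Ikaros letters (TGGGAA) were less common at summits than in flanks, at 6.66% and 9.46%. The shares over all regions were nearly the same, at 6.36% and 9.16%.

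**Figure D5:**
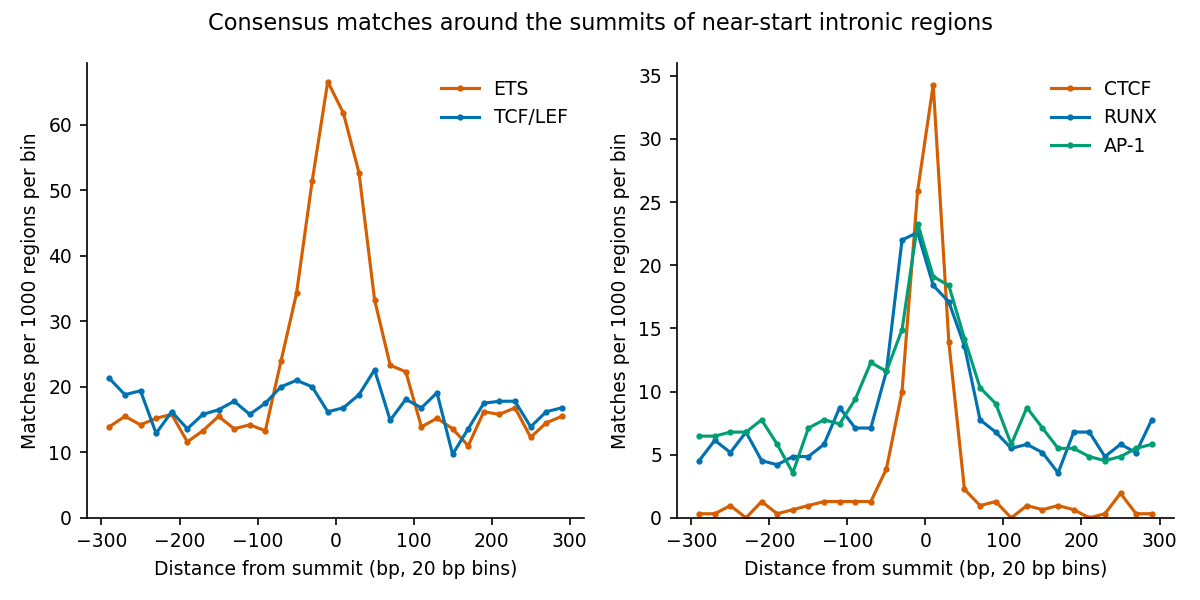
Number of consensus matches per 1000 near-start intronic regions in 20 bp bins from 300 bp on one side of the summit to 300 bp on the other. ETS reaches 66.6 and CTCF 34.3 per bin next to the summit, from 13.9 and 0.323 in the outermost left bin, and TCF/LEF (left panel, blue) shows no peak.

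CTCF matches were unevenly spread among the members. They were found in 6.02% (4.98 to 7.2%) of regions in first introns and in 12% (10.2 to 14%) of those in later introns. By distance the share was 5.3% between 1000 and 2000 bp, 8.11% between 2000 and 5000 bp and 10.3% between 5000 and 10000 bp. Members with a CTCF match had a median width of 403.5 bp, beside 509 bp without, and a median −log10 p of 48.4, beside 68.8, while their median fold was 11.4 (10.6 to 12.3), beside 10.1 (9.84 to 10.3). Of their 267 matches, all searched within 50 bp of the summit, 70.4% lay within 20 bp of it. At T cell list genes 1 of 142 regions held one (0.704%, 0.0178 to 3.86%), beside 8.91% (7.91 to 10%) at other genes.

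At the T cell genes other motifs had shares above or below those of the remaining members. RUNX was found in 13.4% (8.25 to 20.1%), beside 8.37% elsewhere, AP-1 in 14.1% (8.82 to 20.9%), beside 7.83%, and STAT in 9.15% (4.97 to 15.1%), beside 3.08%. ETS was found in 16.9% (11.1 to 24.1%), beside 23.8%. The intervals for RUNX, AP-1 and ETS overlapped those of the other genes, and those for STAT and CTCF did not. These groups were compared after earlier motif results were known, and no test was made. Among all members, 60 (1.94%) held both ETS and RUNX, 56 (1.81%) ETS and AP-1, and 1762 (57%) none of ETS, RUNX, AP-1 and CTCF. Such combinations were not counted over all regions. Whether the pairs exceed what the shares of the single motifs would give was not tested.

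In base composition most members differed from promoters. Their median GC content within 50 bp of the summit was 50.5%, beside 49.5% in deep introns and 64.4% at promoters. CpG-rich windows, with over 50% GC and an observed over expected ratio above 0.6 within 250 bp of the summit, made up 3.98% (123 regions), beside 0.858% of deep intronic and 75.7% of promoter regions. Their share was 10.9% between 1000 and 2000 bp and 0.424% between 9000 and 10000 bp. Summits fell in repeats masked in the reference in 9.83% of regions, where 29% of the sequence was masked. An annotated start of another kind, of a noncoding gene or of a transcript without a coding sequence, lay within 1000 bp of 329 summits (10.6%, against 6.45% of the sequence). The median fold of these 329 was 10.2, the same as for the others.

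Every near-start intronic region had passed the threshold on reproducibility, and the ranked list shows how many candidates did. It held 6506 candidates of this kind, of which 3101 (47.7%, 46.4 to 48.9%) had an irreproducible discovery rate (IDR) of 0.05 or lower, beside 54.9% of all candidates. The share was 45% of deep intronic, 47.2% of exonic and 48.7% of intergenic candidates, and 76.7% at promoters, so the near-start candidates were close to the other classes outside promoters. Near-start candidates that failed had a median fold of 4.73 and a median width of 283 bp. In the pseudoreplicated list 3091 of the members (99.9%) had the same start and end. The top score was reached by 1519 members (49.1%), beside 62.1% of all regions.

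When the members were split into 4 classes of equal size by fold enrichment, they differed in position and width. From the lowest to the highest class the median distance to a start was 2960, 4358, 5239 and 5810 bp, and the median width 351.5, 461, 523 and 617 bp. The share in first introns was 71.6%, 66.8%, 55.2% and 47.1%, and the share in hosts with an open promoter 92.2%, 83.2%, 79% and 74.6%. Members that reach into a promoter window again counted as opening it. Regions of low fold were thus nearer to starts, narrower, and more often in first introns of genes with an open promoter. The nearest other region lay at a median of 4593 bp from the edge of a member, beside 8964 bp for deep intronic regions, and within 2000 bp for 29.8% of members, beside 20.1%. Promoter regions counted as neighbours, and the rule sets members nearer to starts, so this comparison is not independent of the rule. The median gap was 1243 bp between 1000 and 2000 bp from a start and 8006.5 bp between 9000 and 10000 bp.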

How the data were processed

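ATAC-seq of 2 technical replicates of 1 biological replicate was given as 3 peak lists on mm10, per the labels: peaks passing a threshold on the irreproducible discovery rate (IDR), ranked IDR peaks and pseudoreplicated peaks. The lists were taken to pool the libraries. The deposited values used were a score of up to 1000, the authors' fold enrichment (a linear ratio) and −log10 p, with the −log10 of the IDR in the ranked list. For the aligner, peak caller, read shift for Tn5 and background of the fold, the entry is: not given in the sources used here. Read depth is unknown.

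The 58138 thresholded peaks were merged into 29415 regions and set against mm10 GENCODE transcripts. Available sequence was sampled every 10 bp, and every 2000 bp for intron number and host gene. Promoters reached 1000 bp either side of a protein-coding start. Motif windows were 50 bp either side of the summit, with flanks 500 bp away. Intervals are at 95%. With 1 biological replicate no test between groups was made. Scripts were tested on simulated data.

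Named genes were the 12 members of greatest fold, the 12 host genes with most members, list genes with members and the greatest member of each list, and every member at 11 Treg genes. Some of these genes and a sequence are not reported here. Members, lists and motifs were chosen with earlier results of these data known. Alternatives changed the list, the fold or IDR threshold, merging, summit choice, annotation, distance bounds and motif windows. Python 3.11.15, numpy 2.4.6, pandas 2.3.3, scipy 1.17.1 and matplotlib 3.10.9 were used.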

Additional observations from a re-analysis of the deposited data

How the results depend on the processing

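All values come from 1 animal, and the intervals cover counting error over regions only. No replicate could be left out, since each list pools the libraries. No paired analysis was possible because there is 1 group and no test between groups. Depth is unknown, so no limit of detection was computed. Of 92 alternative values, 45 stayed within the interval or the 1.5-fold margin of the value reported and 47 moved beyond it. A reversal of direction was not scored. The near-start median fold was below the deep intronic one under each of these settings.

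The pseudoreplicated list gave 6437 near-start intronic regions (12.2% of all), a median fold of 6.65, a median width of 371 bp, 84.1% of hosts with an open promoter and an ETS ratio of 3.54. Keeping regions at or above the median fold gave 956 regions (6.5%), a fold of 16.4, a width of 605.5 bp, 47.4% in first introns, 46.1% of hosts with an open promoter, a RUNX ratio of 3.83 and a TCF/LEF ratio of 1.56. An IDR of 0.01 or lower gave 9.58% of all regions, a fold of 11.6, a width of 541.5 bp, 76.7% of hosts with an open promoter, and ratios of 4.47 for ETS and 3.86 for RUNX. Without merging there were 4659 peaks (8.01%), with a fold of 7.67 and a width of 595 bp.

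Starts of every gene type gave 15.2% of all regions, a fold of 10.9, a width of 513 bp, 54.8% in first introns and 82.6% of hosts with an open promoter. Basic transcripts gave 9.3%, a fold of 9.86 and 78.8% of hosts with an open promoter. Beyond 2000 bp the share of all regions was 8.4%, the fold 10.6 and the share in first introns 56.8%. Up to 5000 bp there were 1659 regions (5.64%), with a fold of 8.88, a width of 466 bp and 68.1% in first introns.

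Motif windows of 25 bp either side of the summit gave ratios of 4.81 for ETS, 3.84 for AP-1 and 1.06 for TCF/LEF, and windows of 100 bp gave 2.59 for ETS, 2.47 for RUNX and 2.34 for AP-1. Flanks at 1000 bp gave 2.96 for RUNX. The cause of these shifts was not tested.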
